A study of Mus musculus with 6 samples.

Results

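Tuft cells are chemosensory cells scattered singly in the intestinal epithelium, and the 10 genes described here, *Dclk1*, *Trpm5*, *Pou2f3*, *Il25*, *Alox5*, *Gfi1b*, *Gnat3*, *Sh2d6*, *Avil* and *Hpgds*, are commonly used to recognise them. They were taken by name from the table of 54167 genes, and each of the 10 had a row. RNA was sequenced from 6 colorectal tumors of C57BL/6J mice. The *Trp53fl/fl* group (3 tumors) carries floxed *Trp53* alleles without Cre. The *VP* group (3 tumors) carries the same floxed alleles together with Cre driven by the villin promoter, which is active in intestinal epithelium, so that immune, stromal and nerve cells of a *VP* tumor keep *Trp53*. Mice of both groups were given azoxymethane (AOM, 10 mg/kg), a carcinogen, at 8 weeks of age and then repeated courses of 2.5% dextran sulfate sodium (DSS), an inflammatory agent for the colon, each lasting 7 days, and tumors were collected on day 98. The samples are pieces of whole tumor, and the labels do not say which mouse each came from, so p-values measure the spread between these tumors only. In such bulk RNA, fewer tuft cells and less RNA per tuft cell cannot be told apart.

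Values are TPM, a relative abundance of transcripts that adjusts each gene for its transcript length and brings every tumor to a common sum, and keeps no number of reads, so the depth is unknown. *Trp53* was at 124.94, 99.3 and 147.45 TPM across *Trp53fl/fl* tumors, against 38.45, 32.79 and 27.83 TPM across *VP* tumors, which matches the labels. Correlations of log2(TPM + 1) between tumors ranged from 0.948 to 0.974. Differences between genotypes are given throughout as *VP* minus *Trp53fl/fl* on the scale of mean log2(TPM + 1), in which changes of weakly expressed genes look smaller than they are.

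The transcription factor Pou2f3 is required for tuft cells to form. A mature tuft cell carries a taste-type signaling cascade in which receptors act through G proteins such as gustducin (*Gnat3*) on phospholipase C, and released calcium opens the cation channel Trpm5. Its outputs include interleukin-25 (*Il25*), leukotrienes made through Alox5 and prostaglandin D2 made by Hpgds. Interleukin-25 stimulates group 2 innate lymphoid cells to make interleukin-13, which in turn raises the number of tuft cells, a loop described mainly in the small intestine.

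The stretches below precede transcription starts in RefSeq and are printed with GRCm38.p6 coordinates, 5′ to 3′ on the strand of the gene. *Sh2d6* and *Gnat3* are shown because they were the members whose genotypes did not overlap, and *Dclk1* because it has 2 starts that a gene-level TPM does not separate. *Hpgds* is shown for the octamer that POU factors such as Pou2f3 bind, marked in capitals.
Sh2d6, chr6:72520037-72520136, minus strand: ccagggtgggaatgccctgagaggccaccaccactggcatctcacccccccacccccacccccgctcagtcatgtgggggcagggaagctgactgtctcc
Gnat3, chr5:17962470-17962548, plus strand: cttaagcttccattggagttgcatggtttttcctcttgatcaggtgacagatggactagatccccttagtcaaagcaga
Dclk1, upstream start, chr3:55242264-55242363, plus strand: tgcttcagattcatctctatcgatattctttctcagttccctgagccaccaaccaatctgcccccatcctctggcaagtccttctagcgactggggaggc
Dclk1, downstream start, chr3:55461628-55461727, plus strand: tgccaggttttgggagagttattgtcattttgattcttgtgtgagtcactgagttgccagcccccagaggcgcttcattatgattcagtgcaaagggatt
Hpgds, chr6:65144886-65144915, minus strand: ctttactctttATGCAAATacgttggacta

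The letters ATGCAAAT, or ATTTGCAT for the other strand, were searched in windows from 250 bases before to 50 bases after each RefSeq start. Of the 10 members, 8 had an entry, with 9 windows in all, and *Pou2f3* and *Il25* had none. The octamer was present in 1 of the 9 windows, that of *Hpgds*, and in 570 of all 32851 windows of this length (1.74%). In GENCODE M21 the *Hpgds* transcript starts farther upstream, so that 23 of the 30 bases shown lie in its first, untranslated exon. The stretches of *Sh2d6* and of the downstream *Dclk1* start also lie inside the GENCODE gene, though outside its exons. A match is a stretch of letters, not evidence of binding, and no binding data were analysed here.

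The 10 genes were mostly weak in these tumors. Of the 10, 4 stayed under 1 TPM in every tumor, and 2 were listed at 0 in at least 1 tumor. *Avil*, which encodes the actin-binding protein advillin, was far above the others, between 30.41 and 83.07 TPM, and its mean stood at percentile 90.2 of the 27871 genes above 0 TPM. *Hpgds* (2.40 to 7.58 TPM), *Sh2d6* (2.23 to 5.74 TPM), *Alox5* (2.30 to 2.87 TPM) and *Dclk1* (1.14 to 3.94 TPM) followed, and the ranges of neighbours in this order overlapped. *Trpm5*, at 0.36 to 0.92 TPM, lay below every *Dclk1* value. The lowest levels were those of *Gfi1b*, *Pou2f3*, *Gnat3* and *Il25*, in this order of the mean, with overlapping ranges between neighbours. Of 46 other tuft cell genes, described below, 13 also stayed under 1 TPM in every tumor, while 32 were expressed enough for a test. Among the 13, *Chat*, which makes acetylcholine, did not exceed 0.15 TPM, and the G protein subunit gene *Gnb3* did not exceed 0.19 TPM. The succinate receptor gene *Sucnr1* did not exceed 0.06 TPM, and *Gng13* was listed at 0 in 4 of 6 tumors. Among the 32, *Plcb2* was at 1.14 to 3.14 TPM and *Ptgs1* at 13.02 to 21.44 TPM.

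**Figure D1:**
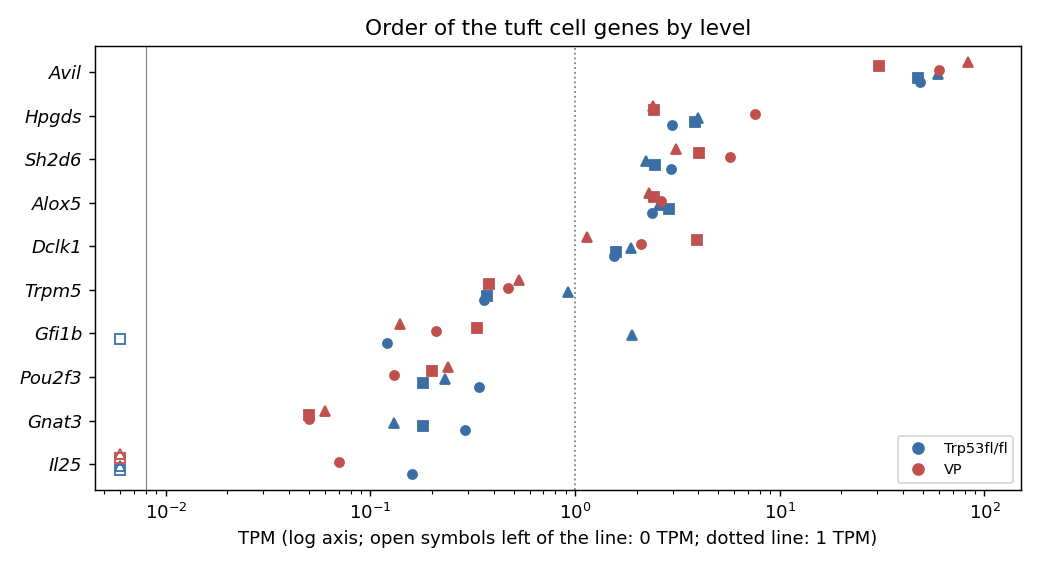
TPM of the 10 tuft cell genes in the 6 tumors on a log axis, ordered by the mean over all tumors, with blue for Trp53fl/fl, red for VP, circles, squares and triangles for replicates 1, 2 and 3, and open symbols at the left for 0 TPM. *Avil* stands between 30.41 and 83.07 TPM, 4 genes lie around 1 to 8 TPM, and the regulator *Pou2f3*, the cascade genes and *Il25* lie mostly below 1 TPM.

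Between genotypes, none of the 5 members with enough expression for a test passed the adjustment. The test was limma over the 15117 genes that reached 1 TPM in 3 or more tumors, and 25 genes (0.165%) had a Benjamini-Hochberg adjusted p under 0.05 and 1892 genes (12.5%) an unadjusted p under 0.05. At the unadjusted threshold 1 of the 5 members, *Sh2d6*, was counted. The median difference of the 5 was 0.057, against -0.07 over all genes tested. *Pou2f3*, *Gfi1b*, *Trpm5*, *Gnat3* and *Il25* fell below the filter and were compared by an exact permutation test alone, whose smallest two-sided p with 3 tumors against 3 is 0.1.

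**Figure D2:**
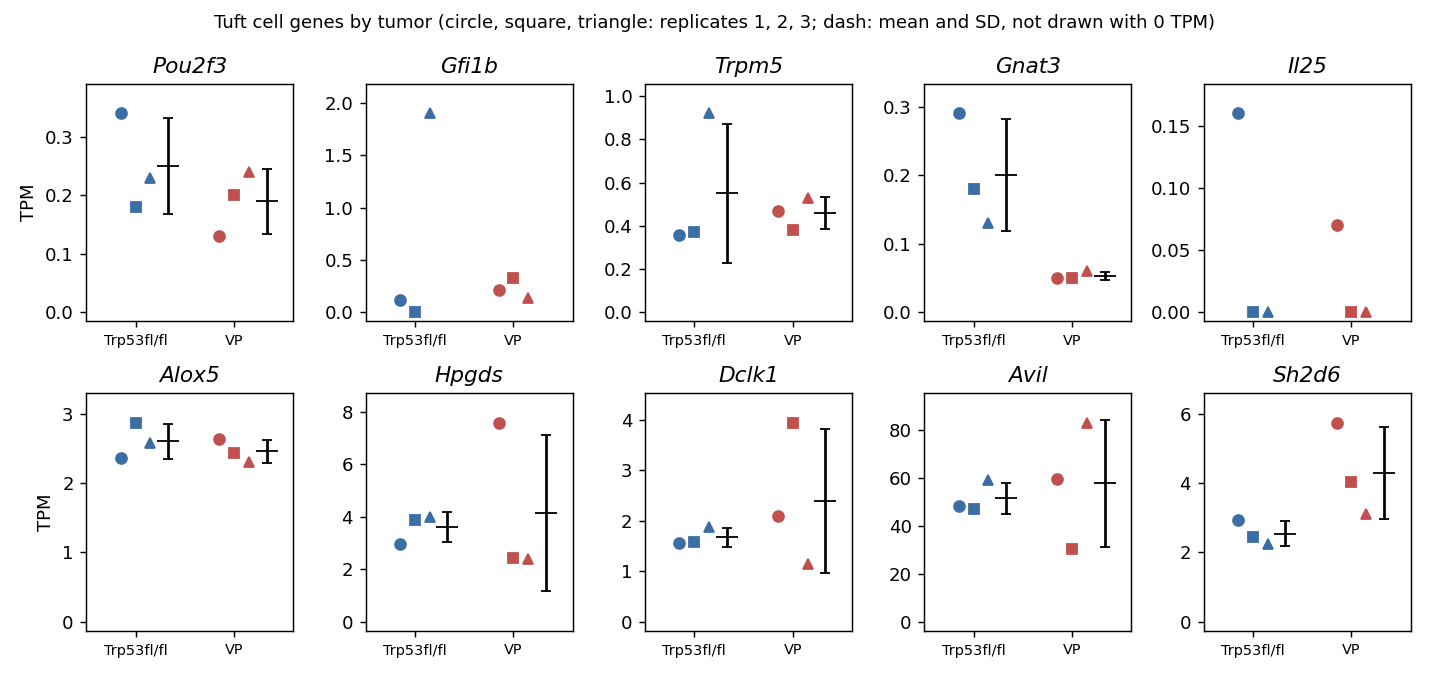
TPM of each tuft cell gene in every tumor on linear axes, with Trp53fl/fl in blue and VP in red, circles, squares and triangles for replicates 1, 2 and 3, and dashes with bars for the mean and SD (n = 3), left out for *Gfi1b* and *Il25*, which have tumors at 0 TPM. The genotypes are apart for *Gnat3*, with VP tumors at 0.05 to 0.06 TPM, and for *Sh2d6*, with VP tumors at 3.10 to 5.74 TPM, and they overlap for the other 8 genes.

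Among the transcription factors, *Pou2f3* (ENSMUSG00000032015, chr9:43123939-43210369 in GRCm38, minus strand) was at 0.34, 0.18 and 0.23 TPM across *Trp53fl/fl* tumors, against 0.13, 0.20 and 0.24 TPM across *VP* tumors. The genotypes overlapped, with a difference of -0.07 (exact permutation p = 0.5). *Gfi1b* (ENSMUSG00000026815, chr2:28609450-28621982 in GRCm38, minus strand), a repressor that is also used in the red cell and megakaryocyte lineages, was at 0.12, 0 and 1.90 TPM across *Trp53fl/fl* tumors, against 0.21, 0.33 and 0.14 TPM across *VP* tumors. *Trp53fl/fl* replicate 3 alone lay above 1 TPM, and the difference of -0.27 (exact permutation p = 1) became 0.21 without it. Markers of the erythroid and megakaryocyte lineages (10 genes, none of them at 0 in every tumor) summed to 517.66 TPM in that tumor, against 221.49 and 213.02 TPM in the other *Trp53fl/fl* tumors and 674 to 973 TPM in the *VP* tumors. Most of each sum came from the hemoglobin genes *Hba-a1* and *Hbb-bs*, and the lineage factor gene *Gata1* did not exceed 0.68 TPM. The part of these cells in the *Gfi1b* values was not tested.

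In the taste-type cascade, *Gnat3* (ENSMUSG00000028777, chr5:17962549-18019834 in GRCm38, plus strand), which encodes the gustducin alpha subunit, was at 0.29, 0.18 and 0.13 TPM across *Trp53fl/fl* tumors, against 0.05, 0.05 and 0.06 TPM across *VP* tumors. Each *VP* tumor was below each *Trp53fl/fl* tumor, with a mean of 0.20 ± 0.082 TPM (SD, n = 3) against 0.053 ± 0.0058 TPM (SD, n = 3) and a difference of -0.19 (exact permutation p = 0.1, the smallest this design allows), or -0.93 with a pseudocount of 0.1 TPM in place of 1 TPM. Of the 12754 genes that were above 0 TPM somewhere but below the filter, 559 (4.38%) were lower in *VP* tumors without overlap. A gene listed at 0 in a *Trp53fl/fl* tumor cannot show this pattern, which lowers that share, whereas *Gnat3* was above 0 in every tumor. Among the genes tested the share was 13.3%. At these levels a value can rest on very few reads, which TPM does not show. The channel gene *Trpm5* (ENSMUSG00000009246, chr7:143069153-143094642 in GRCm38, minus strand) was at 0.36, 0.37 and 0.92 TPM across *Trp53fl/fl* tumors, against 0.47, 0.38 and 0.53 TPM across *VP* tumors. The genotypes overlapped, with a difference of -0.068 (exact permutation p = 1) that became 0.096 without *Trp53fl/fl* replicate 3. In GENCODE M21, 220 of the 6398 exon bases of *Trpm5* are shared with *Tssc4* on the opposite strand, which was at 32.47 to 43.93 TPM and highest in the same tumor, and since no strand setting is stated, reads of both genes cannot be told apart there.

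*Il25* (ENSMUSG00000040770, chr14:54932695-54935837 in GRCm38, plus strand), the cytokine that tuft cells release, was at 0.16 TPM in *Trp53fl/fl* replicate 1 and 0.07 TPM in *VP* replicate 1 and was listed at 0 in the other 4 tumors. Neither genotype had it in more than 1 tumor, and the exact permutation test gave p = 1.

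The eicosanoid enzymes did not separate the genotypes. *Alox5* (ENSMUSG00000025701, chr6:116410077-116461178 in GRCm38, minus strand), the 5-lipoxygenase that starts leukotriene synthesis, was at 2.37, 2.87 and 2.58 TPM across *Trp53fl/fl* tumors, against 2.63, 2.44 and 2.30 TPM across *VP* tumors. It was the steadiest of the 5 tested members, with a difference of -0.060 (SE 0.16, limma adjusted p = 0.891). *Hpgds* (ENSMUSG00000029919, chr6:65117293-65144908 in GRCm38, minus strand), the hematopoietic prostaglandin D synthase, was at 2.97, 3.86 and 4 TPM across *Trp53fl/fl* tumors, against 7.58, 2.43 and 2.40 TPM across *VP* tumors. *VP* replicate 1 was the highest of the 6 tumors and the other *VP* tumors the lowest, and the difference of 0.018 (SE 0.37, limma adjusted p = 0.989) became -0.43 without *VP* replicate 1. Both enzymes are also made by blood cells. Mast cell markers (11 genes) summed to 134 to 492 TPM in the *Trp53fl/fl* tumors and 90.5 to 277 TPM in the *VP* tumors, with most of the sum in most tumors from *Mcpt1* and *Mcpt2*. Single markers were lowest in *Trp53fl/fl* replicate 3 for 5 of the 11 and in *VP* replicate 1, where *Hpgds* was highest, for 4. Macrophage markers (8 genes, all tested) summed to 455 to 490 TPM and 473 to 584 TPM. Eosinophil markers (8 genes, 1 of them at 0 in every tumor) summed to 3.42 to 8.51 TPM and 3.84 to 8.15 TPM. Neutrophil markers (13 genes), described below with *Alox5ap*, summed to 407 to 735 TPM and 1233 to 2059 TPM, without overlap. The part of these cells in the *Alox5* and *Hpgds* values was not tested.

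Of the structural genes, *Dclk1* (ENSMUSG00000027797, chr3:55242364-55539068 in GRCm38, plus strand), a microtubule-associated kinase and a customary tuft cell marker, was at 1.55, 1.58 and 1.88 TPM across *Trp53fl/fl* tumors, against 2.10, 3.94 and 1.14 TPM across *VP* tumors. The *VP* tumors held both the highest and the lowest value, with a difference of 0.26 (SE 0.31, limma adjusted p = 0.735) that became -0.050 without *VP* replicate 2. *Dclk1* is also a gene of neurons. Of 9 enteric neuron markers, none of them at 0 in every tumor, 6 were highest in *VP* replicate 2 and 5 lowest in *VP* replicate 3, the tumors in which *Dclk1* was highest and lowest. Their summed level was 26.1 to 29.4 TPM in the *Trp53fl/fl* tumors and 21.4 to 39.1 TPM in the *VP* tumors, highest in *VP* replicate 1. In *VP* replicate 2, 8 of 10 enteroendocrine markers and 6 of 12 epithelium markers were highest too. The part of any of these cells in the *Dclk1* values was not tested.

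**Figure D3:**
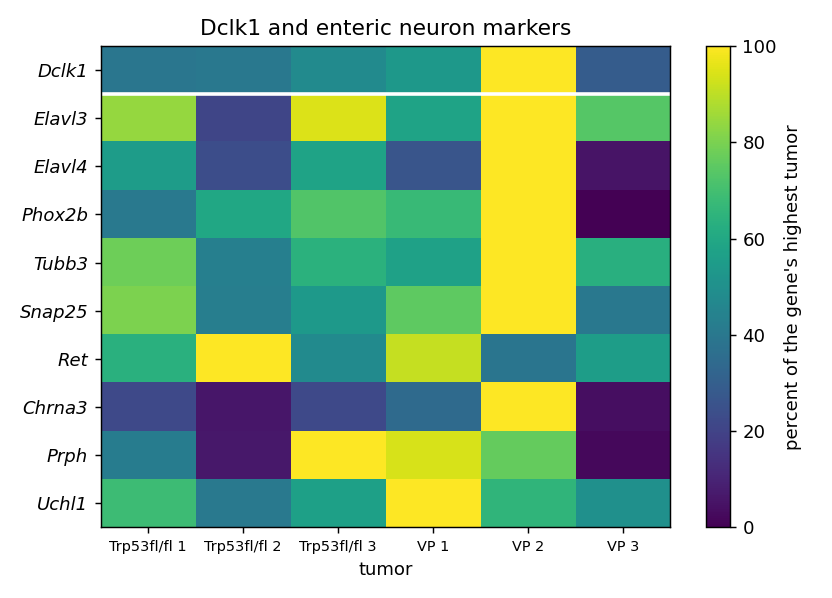
Level of *Dclk1* (top row) and of 9 enteric neuron markers in the 6 tumors, colored as the percent of the TPM in the tumor where each gene was highest. *Dclk1* and 6 of the 9 markers reach 100 percent in VP replicate 2, and 5 of the 9 markers are lowest in VP replicate 3, as is *Dclk1*.

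*Avil* (ENSMUSG00000025432, chr10:127000709-127020994 in GRCm38, plus strand), which binds actin in the apical bundle of the tuft cell, was at 48.35, 47.14 and 59.04 TPM across *Trp53fl/fl* tumors, against 59.80, 30.41 and 83.07 TPM across *VP* tumors. The *VP* tumors again held both ends of the range, and the difference of 0.057 (SE 0.33, limma adjusted p = 0.956) lay between -0.26 without *VP* replicate 3 and 0.45 without *VP* replicate 2. The tumor order of *Avil* was not that of *Dclk1*, since *VP* replicate 2 was lowest for *Avil* and highest for *Dclk1*. In GENCODE M21, 165 of the 3398 exon bases of *Avil* are shared with *Tsfm* on the opposite strand, which was at 32.34 to 45.47 TPM. *Tsfm* was highest in *VP* replicate 2, where *Avil* was lowest, and the part of *Tsfm* reads in the *Avil* values was not tested.

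*Sh2d6* (ENSMUSG00000052631, chr6:72513641-72521707 in GRCm38, minus strand), which encodes an adaptor with an SH2 domain, was at 2.94, 2.45 and 2.23 TPM across *Trp53fl/fl* tumors, against 5.74, 4.03 and 3.10 TPM across *VP* tumors. Each *VP* tumor was above each *Trp53fl/fl* tumor, though the lowest *VP* value and the highest *Trp53fl/fl* value lay close together. The mean was 4.29 ± 1.34 TPM (SD, n = 3) against 2.54 ± 0.363 TPM (SD, n = 3), a difference of 0.55 (SE 0.22). It did not pass the adjustment, with an unadjusted limma p of 0.041 and a limma adjusted p of 0.384, and the exact permutation test gave p = 0.1. Among the genes tested, 911 (6.03%) were higher in *VP* tumors without overlap. In the 14 alternative settings the difference stayed between 0.36 and 0.72, and the limma adjusted p between 0.304 and 0.672.

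The members did not share a tumor order. No tumor was the highest for more than 3 of the 10 genes, and *VP* replicate 3, the lowest for 3 genes, was the highest for *Avil*. The mean standardized profile of the 5 tested members was highest in *VP* replicate 1 and lowest in *Trp53fl/fl* replicate 1. The genes outside all lists whose log2(TPM + 1) followed that profile most closely over the 6 tumors were *Clcn2* (Pearson r = 0.995), *Gm44040* (r = 0.990), *Crybb3* (r = 0.989), *Muc4* (r = 0.986) and *Mmrn1* (r = 0.984). With 6 tumors 125 tested genes had an r over 0.9, so that such a ranking describes these tumors only.

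Tuft cells are epithelial, so the members were also set against 12 epithelium markers, all of them tested. These summed to 9940 to 10534 TPM in the *Trp53fl/fl* tumors and 11317 to 12534 TPM in the *VP* tumors, without overlap. Single markers without overlap were 3 of the 12, *Krt19*, *Cldn7* and *Lgals4*, all higher in *VP* tumors, beside 6.03% of all genes tested. *Epcam* differed by 0.0028. The mean log2(TPM + 1) of the markers was higher by 0.19 in *VP* tumors, with overlap, since *Trp53fl/fl* replicate 2 lay just above *VP* replicate 3. Subtracting that mean in each tumor lowers the difference of every gene by the same 0.19, also that of a gene listed at 0. The difference of *Sh2d6* was then 0.36 (exact permutation p = 0.2). *Alox5*, whose genotypes overlapped in TPM, was at -0.25 per epithelial level (exact permutation p = 0.1, the smallest this design allows). Most of that value is the shift of 0.19, and its limma adjusted p after the subtraction was 0.389. The subtraction raised the genes with an unadjusted limma p under 0.05 from 1892 to 3764 of 15117. *Dclk1* was at 0.072 (exact permutation p = 0.8) and *Avil* at -0.13 (exact permutation p = 0.9). *Hpgds* was at -0.17 (exact permutation p = 0.7). For the 5 members below the filter, the values, from -0.23 for *Il25* to -0.47 for *Gfi1b*, hold this shift of 0.19 whatever the level of the gene, and nothing is read from them.

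The wider tuft cell program was read from a list of 47 other genes with known roles in these cells, of which 46 had a row and 32 were tested. None of the 32 had a limma adjusted p under 0.05, 3 were higher (*Alox5ap*, *Lrmp* and *Il4ra*) and 1 lower (*Il17rb*) at an unadjusted p under 0.05, that is 4 of 32 beside 12.5% of all genes tested, and 13 of the 46 stayed under 1 TPM in every tumor. The median difference of the 32 was 0.0066, against -0.07 over all genes tested, with 18 above and 14 below 0. Many of these genes are also expressed in other epithelial or immune cells, so their levels are not a measure of tuft cells alone.

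*Alox5ap*, which presents arachidonic acid to Alox5, had the largest difference on this list. It was at 17.73, 15.08 and 23.41 TPM across *Trp53fl/fl* tumors, against 55.53, 40.44 and 30.10 TPM across *VP* tumors. The genotypes did not overlap, and the difference was 1.10 (SE 0.25, limma adjusted p = 0.244). Neutrophils also express *Alox5ap*, and their markers (13 genes, none of them at 0 in every tumor) summed to 407 to 735 TPM in the *Trp53fl/fl* tumors and 1233 to 2059 TPM in the *VP* tumors. Most of each sum came from *S100a8* and *S100a9*. All 11 tested neutrophil markers were higher in the mean of the *VP* tumors. At an unadjusted limma p under 0.05 were 8 of them, beside 12.5% of all genes tested, and 1, *Ngp*, had a limma adjusted p under 0.05. *Csf3r*, *Ly6g* and *Mmp9* overlapped between the genotypes. Of the 2 markers below the filter, *Mpo* was lower and *Elane* higher in the mean of the *VP* tumors. The part of neutrophils in the *Alox5ap* values was not tested. Elsewhere in eicosanoid synthesis, the phospholipase gene *Pla2g4a* had the lowest difference, -0.13 (limma adjusted p = 0.756).

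*Lrmp*, a membrane protein gene of tuft and lymphoid cells, was at 14.73, 28.92 and 14.41 TPM across *Trp53fl/fl* tumors, against 41.39, 27.04 and 32.28 TPM across *VP* tumors. The genotypes overlapped through *Trp53fl/fl* replicate 2, and the difference was 0.82 (SE 0.29, limma adjusted p = 0.341). At the other end of the adaptors stood *Fyb*, with a difference of -0.19 (limma adjusted p = 0.670).

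Among the receptors, *Il17rb*, which encodes a subunit of the receptor for interleukin-25, was at 1.76, 2.46 and 3.33 TPM across *Trp53fl/fl* tumors, against 1.17, 1.52 and 1.21 TPM across *VP* tumors. The *VP* tumors were lower without overlap, with a difference of -0.59 (SE 0.22, limma adjusted p = 0.362). A pattern of this kind, lower in *VP* tumors without overlap, was found for 2011 of the genes tested (13.3%). *Il4ra*, whose product is part of the receptors for interleukin-4 and interleukin-13, was at 41.56, 38.14 and 33.73 TPM across *Trp53fl/fl* tumors, against 43.89, 47.87 and 51.15 TPM across *VP* tumors. It was higher in *VP* tumors without overlap, with a difference of 0.33 (SE 0.12, limma adjusted p = 0.358).

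Downstream of the receptors, *Plcb2*, the phospholipase C of the taste cascade, was at 2.20, 3.14 and 1.67 TPM across *Trp53fl/fl* tumors, against 1.14, 1.35 and 1.58 TPM across *VP* tumors. The *VP* tumors were lower without overlap, with a difference of -0.48 (SE 0.22, limma adjusted p = 0.423). This held for 1 of the 4 tested cascade genes of the list, beside 13.3% of all genes tested, and the other tested cascade genes overlapped. *Plcg2*, another phospholipase C, had the highest difference of the tested cascade genes, 0.19 (limma adjusted p = 0.749). The transcription factors ranged from *Ascl2*, a stem cell factor, with a difference of -0.29 (limma adjusted p = 0.588), to *Spib*, with a difference of 0.19 (limma adjusted p = 0.885). The structural genes ranged from the tubulin gene *Tuba1a*, with a difference of -0.28 (limma adjusted p = 0.623), to *Dclk1*, above, and *Vil1*, which encodes villin, with a difference of 0.19 (limma adjusted p = 0.496). Of the surface genes, *Cd24a* had a difference of -0.12 (limma adjusted p = 0.787) and *Cd300lf* of 0.49 (limma adjusted p = 0.480).

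**Figure D4:**
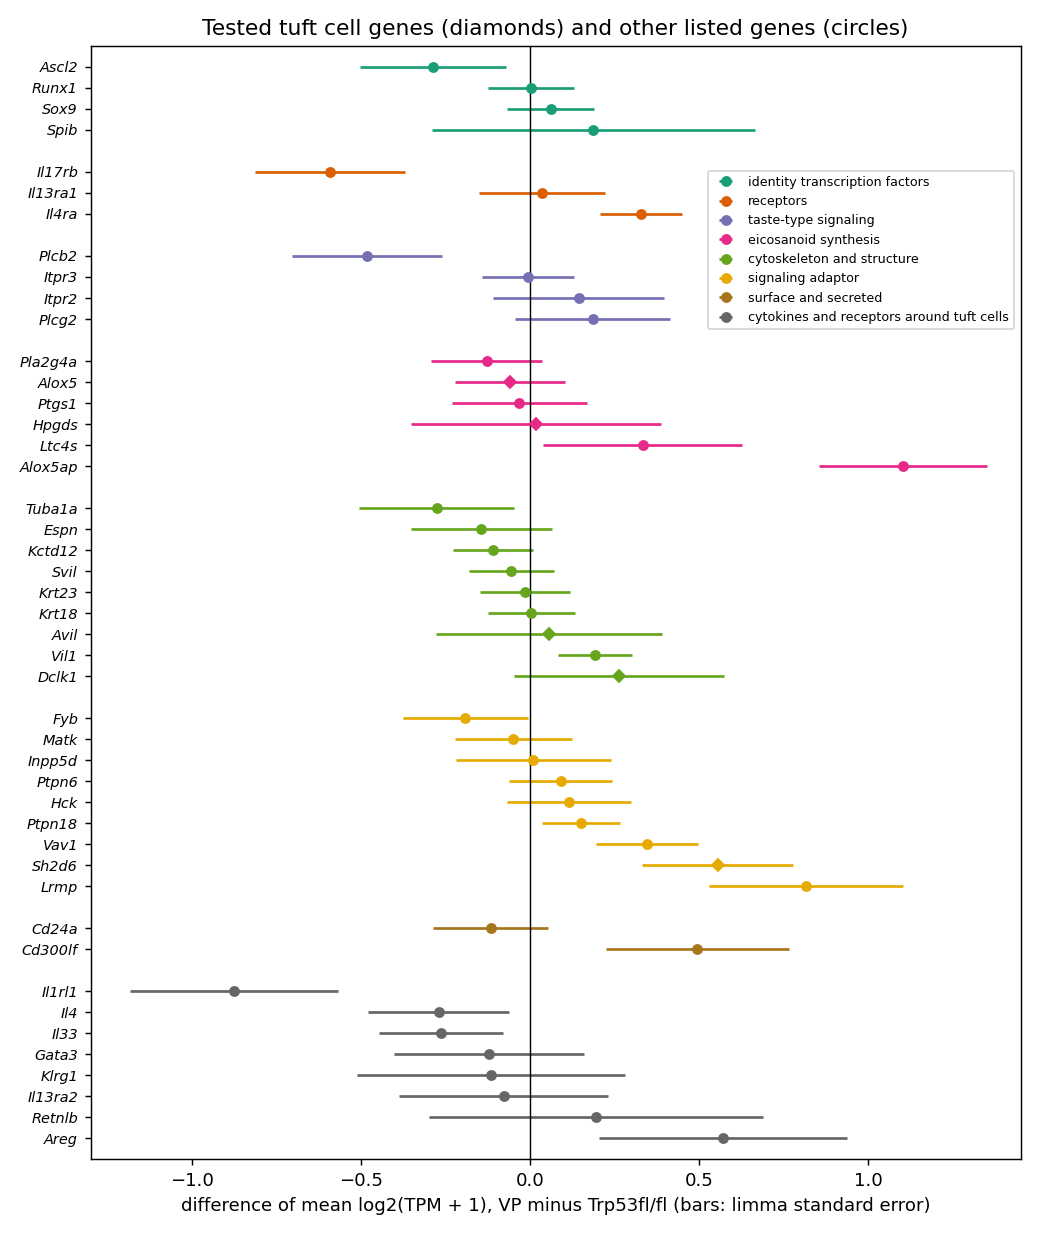
Difference of mean log2(TPM + 1), VP minus Trp53fl/fl, with the limma standard error as bars, for the 5 tested tuft cell genes (diamonds) and the tested genes of the 2 other lists (circles), colored by role. *Alox5ap* at 1.10 and *Il1rl1* at -0.88 are farthest from 0, and none of the genes shown has a limma adjusted p under 0.05.

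Of 10 genes of the type 2 response around tuft cells, most of them for cytokines and receptors, 8 were tested. None had a limma adjusted p under 0.05. The median difference was -0.12, with 2 above and 6 below 0, and *Il1rl1* alone, 1 of 8, was lower at an unadjusted p under 0.05. Over all genes tested the median was -0.07, 5930 were above and 9187 below 0, and 12.5% had an unadjusted p under 0.05. *Il1rl1*, the receptor for interleukin-33, was at 124.31, 62.52 and 83.44 TPM across *Trp53fl/fl* tumors, against 31.90, 59.61 and 53.53 TPM across *VP* tumors. The *VP* tumors were lower without overlap, with a difference of -0.88 (SE 0.31, limma adjusted p = 0.341). Mast cells also carry this receptor. Of the 9 mast cell markers tested, 3 were higher and 6 lower in the mean of the *VP* tumors. The sum of all 11 markers overlapped between the genotypes and was lowest in *VP* replicate 1, as was *Il1rl1*. At the other end they differed, since the sum was highest in *Trp53fl/fl* replicate 2 (491.86 TPM). *Il1rl1* was highest in *Trp53fl/fl* replicate 1, where the sum was 205.9 TPM. The part of mast cells in the *Il1rl1* values was not tested. *Areg*, an epidermal growth factor ligand, had the highest difference, 0.57 (limma adjusted p = 0.534). *Il13* and *Il5* fell below the filter. *Il13*, chosen after its values were seen, was listed at 0 in each *Trp53fl/fl* tumor. The *VP* tumors had 0.12, 0.25 and 0.07 TPM (exact permutation p = 0.1, the smallest this design allows). *Il5* was at 0, 0.05 and 0 TPM across *Trp53fl/fl* tumors, against 0.05, 0.14 and 0 TPM across *VP* tumors, with overlap. Such values can rest on very few reads, and nothing is read from them. T and innate lymphoid cell markers (9 genes) summed to 55.7 to 68.1 TPM in the *Trp53fl/fl* tumors and 47.2 to 73.8 TPM in the *VP* tumors.

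**Figure D5:**
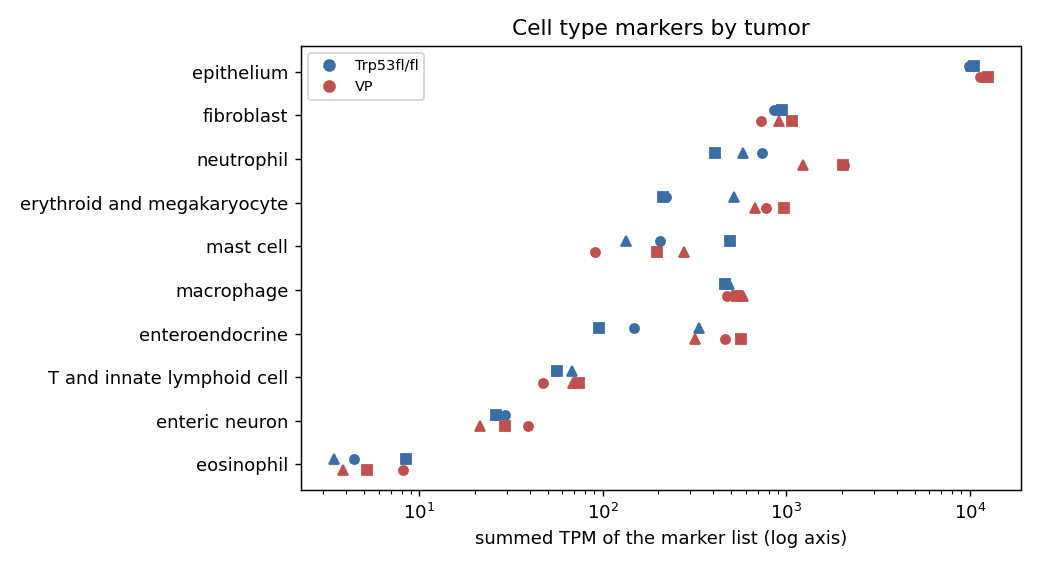
Summed TPM of each cell type marker list in the 6 tumors on a log axis, with Trp53fl/fl in blue and VP in red and circles, squares and triangles for replicates 1, 2 and 3. The neutrophil, epithelium and erythroid and megakaryocyte sums are higher in every VP tumor, the last with most of its sum from *Hba-a1* and *Hbb-bs*, while the sums of the other lists overlap between the genotypes. The mean log2(TPM + 1) of the epithelium list and of the erythroid and megakaryocyte list overlaps.

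Enteroendocrine markers (10 genes), which stand for another rare secretory cell of the epithelium, summed to 95.7 to 335 TPM in the *Trp53fl/fl* tumors and 320 to 566 TPM in the *VP* tumors. The sums overlapped, since *Trp53fl/fl* replicate 3 lay above *VP* replicate 3, and most of each sum came from *Pyy*. All 7 tested were higher in the mean of the *VP* tumors, 2 of them at an unadjusted limma p under 0.05. Over all genes tested, 5930 of 15117 had a difference above 0 and 12.5% an unadjusted limma p under 0.05. Fibroblast markers (8 genes) summed to 860 to 946 TPM and 726 to 1068 TPM.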

How the data were processed

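RNA of 6 tumors, 3 *Trp53fl/fl* and 3 *VP*, was selected by its poly(A) tail and sequenced from both ends by the authors, and the submitters' processing notes name HISAT2, StringTie and the build mm9, without versions or order. The authors deposited TPM per gene with 2 decimals in a separate column for each sample, and each column was assigned through the code in the sample labels. TPM holds no reads, so a count test was not possible, and a change in abundant transcripts shifts all other values. Coordinates are those of GENCODE M21 (GRCm38), matched by gene ID for 52093 of 54167 genes (96.2%), and not those of mm9. Promoters came from the RefSeq table (GRCm38.p6). Gene names are as deposited.

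log2(TPM + 1) was tested with limma 3.58.1 in R 4.3.3 (empirical Bayes with trend, genotype only, Benjamini-Hochberg adjustment over all 15117 genes that reached 1 TPM in 3 or more tumors). The exact permutation tests were two-sided and run with scipy 1.17.1 (Python 3.11.15, numpy 2.4.6, pandas 2.3.3). Named genes were the 10 members, genes of the 2 other lists with p under 0.05 or at the ends of their role, and the 5 genes closest in profile. The members, lists and rules were chosen with earlier results of these data known, so counts over them are descriptions. The alternatives were a pseudocount of 0.1, no filter, a filter on a mean of 0.1 TPM, quantile normalization, rescaling by median of ratios, epithelial centring (subtraction of the mean of 12 epithelium markers), the replicate number as a block, no trend, and each tumor left out in turn.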

Additional observations from a re-analysis of the deposited data

How the results depend on the processing

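In the 14 alternatives, no tested member, other tuft cell gene or type 2 gene had a limma adjusted p under 0.05. Of the 10 members, 10 were tested without a filter, 9 with the filter on a mean of 0.1 TPM and 5 in every other alternative. For the other tuft cell genes these numbers were 46, 41 and 32. Over all genes the count of 25 fell to 7 without a filter and lay between 3 and 23 with 1 tumor left out, the lowest without *Trp53fl/fl* replicate 1, with 14 or fewer without any tumor other than *VP* replicate 3. The causes were not tested. Replicate numbers come from the labels. Same-numbered tumors did not deviate together (correlations of 0.018, -0.052 and 0.017), which does not settle whether they share more than a number. The replicate block gave 10 genes. Of the 25 calls 12 were higher and 13 lower in *VP* tumors, against 12 and 8 after median-of-ratios rescaling and 10 and 20 after epithelial centring, which moved the median of all genes from -0.07 to -0.26. *Sh2d6* (0.36 to 0.72), *Gnat3* (-0.93 to -0.13) and *Pou2f3* (-0.26 to -0.019) kept their direction in all 14, with the lower bounds of *Gnat3* and *Pou2f3* at a pseudocount of 0.1 and their upper bounds without *Trp53fl/fl* replicate 1. Quantile normalization turned *Alox5* to 0.0021, a pseudocount of 0.1 turned *Hpgds* to -0.012, and epithelial centring turned *Avil* to -0.13 and *Hpgds* to -0.17. With 1 tumor left out, *Alox5* ranged from -0.11 to -0.0081, *Avil* from -0.26 to 0.45, *Dclk1* from -0.050 to 0.55, *Gfi1b* from -0.56 to 0.21, *Hpgds* from -0.43 to 0.24, *Il25* from -0.075 to 0.033 and *Trpm5* from -0.15 to 0.096. Relative to epithelium markers these ranges were -0.50 to 0.31 for *Avil*, -0.19 to 0.31 for *Dclk1*, -0.80 to 0.074 for *Gfi1b* and -0.62 to 0.092 for *Hpgds*. Without depth, no counting error could be given for members below 1 TPM.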
